A study of Drosophila melanogaster with 4 samples.

Results

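The regions described here are the stretches enriched for histone H1 on 3RHet and 2LHet, the heterochromatic sequences that Release 5 of the Drosophila melanogaster genome assigns to the right arm of chromosome 3 and the left arm of chromosome 2. They were chosen by sequence name alone, without regard to length or score. Of 18812 regions in the table that combines the replicates, 248 lay on 3RHet and 31 on 2LHet, 279 in all. Replicate 1 held 13 and 3 of its 3779 regions there, and replicate 2 held 70 and 9 of its 4665.

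H1 is the linker histone, which binds the nucleosome where DNA enters and leaves it and helps chromatin fold. Heterochromatin next to the centromeres is rich in transposable elements and satellite repeats, and carries methylated histone H3 and the heterochromatin protein HP1a. In Drosophila larvae, H1 is known to be needed for the structure of this chromatin and for the silencing of transposable elements.

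The assay was chromatin immunoprecipitation and sequencing (ChIP-seq) with an antibody to H1, in wild-type Oregon-R larvae of the third instar, which precedes the pupa. There were 2 ChIP samples, replicates 1 and 2, and 2 input samples, which were not analysed here. All came from crosslinked larval tissue of the same strain, genotype and stage, so no condition was compared, and the labels do not say whether the replicates were separate cultures. Read depth is unknown from the region lists, and so is the threshold behind each list. The shortest region of either replicate measured 1301 bp and the shortest combined region 1001 bp, so the lists differ in their lower limit of length. With 2 replicates, the smallest two-sided p of an exact test on pairs is 0.5, so an exact test could not reach a threshold, and differences between sequences are given as values without a test.

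H1 regions covered a small part of both sequences, and the replicates differed several fold in how much. On 3RHet, 2517507 bp long, regions of replicate 1 covered 0.878% and those of replicate 2 covered 4.78%, a mean of 2.83 ± 2.76% (SD, n = 2). On 2LHet, 368872 bp long, they covered 1.28% and 4.58%, a mean of 2.93 ± 2.33% (SD, n = 2). The combined table covered 16.9% of 3RHet and 14.3% of 2LHet. Replicate 2 was thus higher on both sequences, and the SD was nearly as large as the mean. Shares are of the whole sequence length, uncorrected for copy number and for stretches where reads cannot be placed.

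The arms differed less between the replicates. Replicate 2 held 5.38 times the regions of replicate 1 on 3RHet and 3.00 times on 2LHet, compared with 1.13 times on 3R and 1.16 times on 2L. The other placed heterochromatin had ratios of 2.97 on 3LHet and 7.25 on 2RHet. Coverage of 3RHet relative to 3R was 0.122 and 0.567 in the replicates and 0.456 for combined regions. Coverage of 2LHet relative to 2L was 0.234, 0.677 and 0.436. Both heterochromatic sequences were covered less than their arm in every list, by an amount that varied with the replicate.

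**Figure D1:**
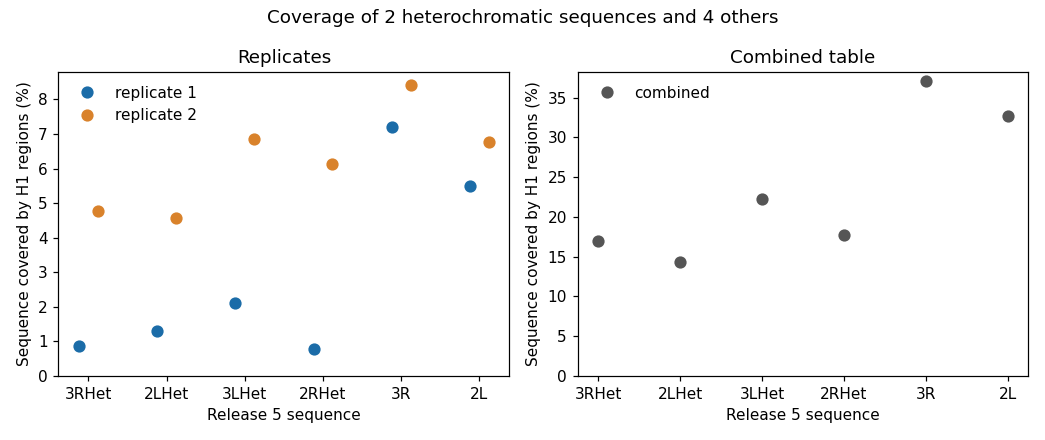
Share of each Release 5 sequence covered by H1 regions, in percent, for replicates 1 and 2 (left) and the combined table (right, with its own axis). Each point is 1 list, and the replicates lie far apart on 3RHet and 2LHet (0.878 and 4.78%, 1.28 and 4.58%) and closer on 3R (7.20 and 8.42%) and 2L (5.50 and 6.77%).

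Along 3RHet the regions were densest in the fourth of 5 blocks. That block, of 500 kb from 1500001 to 2000000, held 7 of the 13 regions of replicate 1, 28 of the 70 of replicate 2 and 73 of the 248 combined regions. Replicate 1 covered 2.46% of it, replicate 2 covered 10.5% and combined regions 29.8%. In the other 4 blocks these shares ran from 0.273 to 0.734%, from 1.39 to 4.80% and from 10.9 to 16.3%. This block was the highest of the 5 in every list, and its values did not overlap those of the others.

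Within that block, the windows of 100 kb from 1800001 and from 1900001 were the densest of the sequence in the combined table, with 39.0% and 40.8% covered. The window from 1800001 was also the densest in each replicate, at 5.76% in replicate 1 and 16.0% in replicate 2. The first block was the sparsest in each list, although the window from 1 to 100000 reached 4.29% in replicate 2 and 19.4% in the combined table. Of 26 windows, the last of them shorter, 9 held a region of replicate 1 by its midpoint, and all 9 also held a region of replicate 2. Replicate 2 had regions in 22 windows, and combined regions lay in 25. Over the 25 full windows, Spearman's rho between the coverage of the replicates was 0.46, given as a description, since the windows share the same libraries.

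On 2LHet the replicates left the first part of the sequence empty. The first region began at 152611 in replicate 1 and at 152530 in replicate 2, whereas the combined table had 8 regions between 5316 and 60898. The replicate regions of 2LHet ended at 251162 and 318162. Combined coverage was more even than on 3RHet, from 11.6% to 16.7% over the 4 windows, while replicate 2 covered 0%, 7.02%, 6.36% and 5.12% of them.

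**Figure D2:**
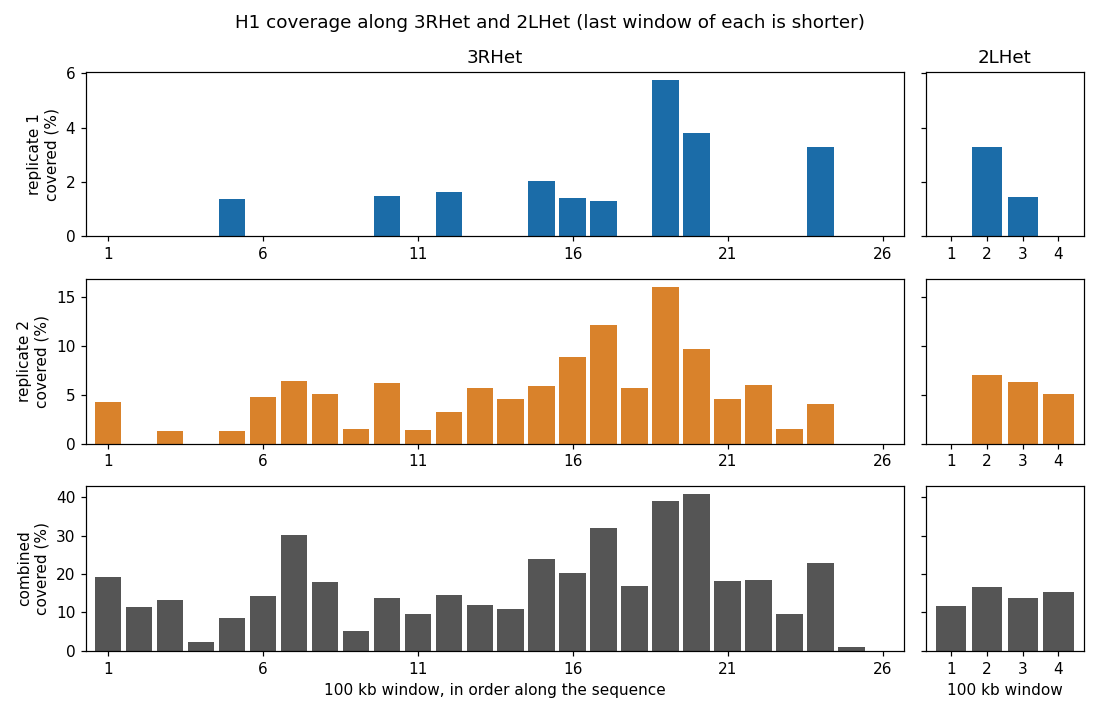
Share of consecutive 100 kb windows covered by H1 regions, in percent, along 3RHet (left) and 2LHet (right), with a row and a vertical scale for each list. Windows 19 and 20 of 3RHet are the tallest bars in the combined table (39.0 and 40.8%), and window 1 of 2LHet is empty in both replicates.

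Neighbouring regions were closely spaced in places and far apart in others. On 3RHet, the gap from the end of a combined region to the start of the next had a median of 3271 bp and a mean of 8369 bp, ranging from 25 to 137229 bp. The SD of the 247 gaps was 1.74 times their mean. On 2LHet the median of the 30 gaps was 4751 bp and the mean 10.1 kb, with a ratio of SD to mean of 1.55. This ratio was 1.50 on 3LHet, 1.91 on 2RHet, 2.19 on 3R and 2.14 on 2L, so it was lower on 3RHet and 2LHet than on the arms.

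Gaps were longer here than on the arms. The median gap of combined regions was 1185 bp on 3R and 1490 bp on 2L, and 3112 bp on 3LHet and 3092 bp on 2RHet. Gaps under 1000 bp made up 22.7% of those on 3RHet and 13.3% on 2LHet, compared with 45.8% on 3R and 40.0% on 2L. They made up 25.2% on 3LHet and 23.2% on 2RHet. Gaps of at least 20 kb between neighbouring combined regions numbered 25 on 3RHet and 4 on 2LHet. They took up 41.2% and 44.8% of these sequences, compared with 24.0% of 3R and 24.3% of 2L. The same share was 41.6% of 2RHet, near that of 3RHet, and 26.8% of 3LHet, near those of the arms.

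In the replicates the median gap on 3RHet was 118335 bp in replicate 1 and 17176 bp in replicate 2. The longest replicate 1 gap ran over 501 kb, from 418397 to 919882, and held 12 regions of replicate 2 and 47 combined regions. The longest of replicate 2 ran over 194 kb, from 79907 to 273804. The longest combined gap on 3RHet ran from 2356941 to 2494169, or 137 kb, and was followed by a single region and then by 22.3 kb of empty sequence up to the end. Both replicates were also empty from 2341291 to the end of the sequence. The next longest combined gaps measured 88.2 kb, from 444025, and 73.3 kb, from 298331. On 2LHet the longest combined gap ran over 79.0 kb, from 60899 to 139935.

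**Figure D3:**
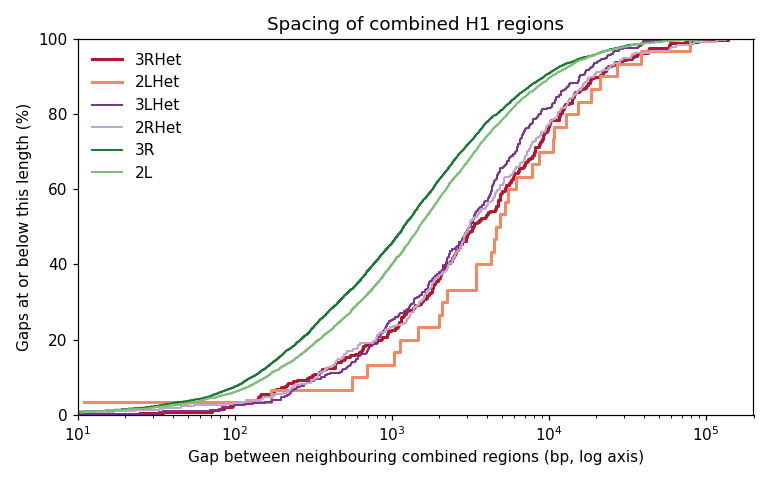
Cumulative share of gaps between neighbouring combined regions, in percent, against gap length in bp on a log axis, with a line for each sequence. The lines of 3RHet and 2LHet (medians 3271 and 4751 bp) lie to the right of those of 3R and 2L (1185 and 1490 bp) and near those of 3LHet and 2RHet.

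Most combined regions lay in groups. A group was taken as 3 or more regions, each less than 10 kb from the next. This distance is above the mean gap of combined regions on 3RHet (8369 bp) and near that on 2LHet (10.1 kb). The density of regions alone can thus place many in groups, and grouping beyond density was not tested. On 3RHet 31 groups held 210 of the 248 regions, or 84.7%, with a median of 5 regions and 21.6 kb a group, and 14 regions stood alone. On 2LHet 6 groups held 26 of the 31 regions, or 83.9%, with a median of 4 regions and 17.0 kb. Groups held 92.0% of regions on 3LHet, 84.1% on 2RHet, 95.6% on 3R and 95.3% on 2L. The number of groups on 3RHet was 20 when the gap that joins regions was 20 kb, and 4 with regions of at least 2000 bp alone.

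The largest group of 3RHet ran from 597602 to 712140 with 22 regions over 115 kb. It was covered to 33.1%, held 6 regions of replicate 2 and none of replicate 1. The next, from 1429122 to 1523954, held 18 regions over 94.8 kb, with 1 region of replicate 1 and 5 of replicate 2. The group from 1826102 to 1892746, held 17 regions over 66.6 kb and was covered to 54.2%, with 3 regions of replicate 1 and 8 of replicate 2, the most of any group on this sequence in either replicate. A denser and smaller group, from 1944094 to 1973896, had 10 regions covering 81.5% of 29.8 kb, with 4 regions of replicate 2 and none of replicate 1.

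Groups of the combined table spanned 36.1% of 3RHet and 30.5% of 2LHet. On 3RHet, 8 of the 31 groups held a region of replicate 1 and 22 a region of replicate 2, and the 8 were among the 22. Of the replicate regions there, 12 of 13 and 58 of 70 touched a group. On 2LHet, 2 of 6 groups held regions of both replicates, and these ran from 172956 to 207208 and from 245368 to 259416. The replicates themselves had few groups: none in replicate 1 on either sequence, and 6 with 21 regions on 3RHet and 1 with 3 regions on 2LHet in replicate 2. Their mean gaps were longer than the joining distance of 10 kb, at 156 and 31.9 kb on 3RHet and 46.9 and 18.6 kb on 2LHet.

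Regions were short on both sequences. The median length of combined regions was 1526 bp on 3RHet, with the middle of the distribution from 1172 to 1936 bp (quartiles), and 1555 bp on 2LHet, from 1088 to 2000 bp. The longest measured 7549 and 3689 bp, against 20555 bp on 3R and 17299 bp on 2L. Regions of at least 2000 bp made up 19.8% of those on 3RHet and 25.8% on 2LHet, compared with 26.6% on 3LHet, 26.7% on 2RHet, 37.6% on 3R and 33.9% on 2L. In the replicates, medians were 1623 and 1563 bp on 3RHet and 1533 and 1648 bp on 2LHet, near the 1571 and 1595 bp of 3R and the 1541 and 1596 bp of 2L.

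The 5 longest combined regions of 3RHet lay between 1866976 and 2023310. The longest, from 1924098 to 1931646, was covered to 50.4% by regions of replicate 1 and to 18.6% by replicate 2. The next, from 1948282 to 1953646, measured 5365 bp and overlapped neither replicate, with the nearest region of replicate 2 lying 460 bp away. The regions from 1872088 to 1876814 and from 1866976 to 1871584 measured 4727 and 4609 bp and overlapped both. The last, from 2018802 to 2023310, measured 4509 bp and overlapped replicate 2 over 64.4% of its length. Of these 5 regions, 3 overlapped both replicates. On 2LHet the 3 longest were the same 3 regions that overlapped both replicates.

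Sites found in both replicates were few. Of the combined regions, 5 of 248 on 3RHet (2.02%, 95% Wilson interval 0.864 to 4.63%) and 3 of 31 on 2LHet (9.68%, 3.35 to 24.9%) shared at least 1 bp with a region of each replicate. Over the whole combined table this share was 6.71%, so 3RHet lay below it and the interval of 2LHet included it. The share was 5.26% on 3LHet, 1.90% on 2RHet, 9.64% on 3R and 6.72% on 2L. The intervals cover counting of regions only, and regions are not replicates.

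The low number on 3RHet went with the few regions of replicate 1. Combined regions overlapping replicate 1 numbered 12 on 3RHet, or 4.84%, against 18.4% over the table. Those overlapping replicate 2 numbered 68, or 27.4%, against 22.7%. On 2LHet, 3 regions (9.68%) overlapped replicate 1 and 9 (29.0%) overlapped replicate 2. The interval of the share on 3RHet ran from 2.79 to 8.27% for replicate 1, below the value over the table, and from 22.2 to 33.3% for replicate 2, around it. Regions overlapping neither replicate numbered 173 on 3RHet and 22 on 2LHet, or 69.8% and 71.0%, against 65.7% over the table.

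Seen from replicate 1, with 13 and 3 regions in place of 248 and 31, the shares were higher. All 16 of its regions on both sequences overlapped a combined region, against 98.6% over all sequences. Of its 13 regions on 3RHet, 5 overlapped replicate 2 (38.5%, 95% Wilson interval 17.7 to 64.5%), and so did all 3 on 2LHet (43.9 to 100%). The share of replicate 1 regions over all sequences was 31.5%, inside the interval of 3RHet. It was 48.5% on 3LHet, 31.25% on 2RHet, 36.9% on 3R and 29.1% on 2L. Of the regions of replicate 2, 5 of 70 on 3RHet (7.14%, 3.09 to 15.7%) and 4 of 9 on 2LHet (44.4%, 18.9 to 73.3%) overlapped replicate 1, against 25.3% over all sequences. By length, sequence covered in both replicates was 4.87% of that covered in either on 3RHet and 22.8% on 2LHet, or 6.61 and 4.02 kb. The same share was 8.18% on 3LHet, 3.22% on 2RHet, 12.3% on 3R and 9.72% on 2L.

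The 5 shared sites of 3RHet included a pair of close neighbours. The first combined region, from 1136628 to 1139026, contained a region of replicate 1 from 1137122 to 1138744 and overlapped one of replicate 2 from 1136560 to 1138444. Those replicate regions shared 1323 bp, which was 81.5% of the first and 70.2% of the second. The authors' score was 0.60 for the first, 0.66 for the second and 0.52 for the combined region.

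The next pair of sites were neighbours, 503 bp apart, inside the group from 1826102 to 1892746. At 1866976 to 1871584, a replicate 1 region of 1577 bp with a score of 0.46 lay wholly inside a replicate 2 region of 3848 bp with a score of 0.69. At 1872088 to 1876814 the order was turned: a replicate 2 region of 1393 bp with a score of 0.41 lay wholly inside a replicate 1 region of 2785 bp with a score of 0.69. These were the longest regions of replicate 2 and of replicate 1 on 3RHet, and each was matched by a shorter region of the other replicate.

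The fourth site of 3RHet, from 1924098 to 1931646, held 2 regions of replicate 1 with scores of 0.51 each. The first of them shared 594 bp, or 30.4% of its length, with a replicate 2 region from 1926102 to 1927508 with a score of 0.55. The second, from 1929797 to 1931656, lay 2288 bp from the nearest region of replicate 2. The fifth site, from 2307594 to 2309912, had replicate regions of 1900 and 2079 bp that shared 1718 bp, with scores of 0.49 and 0.74. Of the 5 sites, only those at 1136628 and 2307594 had combined and replicate regions that overlapped over at least 50% of their lengths in both replicates.

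On 2LHet the 3 shared sites lay about 35 and 55 kb apart. At 152050 to 154944 a replicate 1 region of 1533 bp lay wholly inside a replicate 2 region of 1977 bp, with scores of 0.60 and 0.57. At 189792 to 192962 the replicate regions measured 1743 and 3317 bp, began 96 bp apart and shared 1647 bp, with scores of 0.49 and 0.58. At 248020 to 251708 a single replicate 1 region of 1463 bp, with a score of 0.62, overlapped 2 regions of replicate 2, by 561 and 282 bp, with scores of 0.60 and 0.86. All of the replicate 1 regions of 2LHet were thus matched, and each lay wholly inside its combined region.

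**Figure D4:**
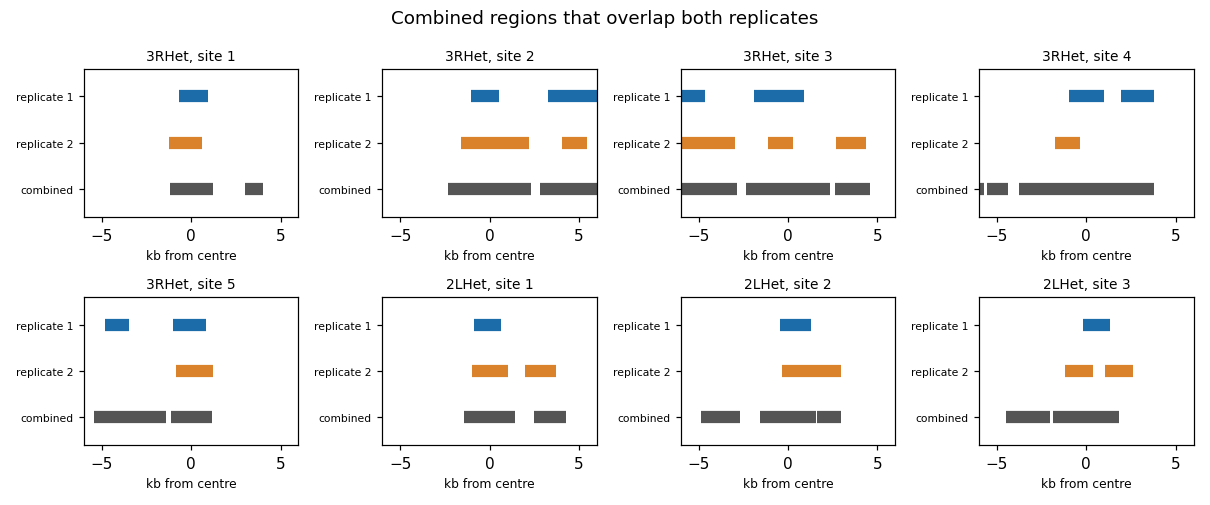
The 5 sites of 3RHet and 3 of 2LHet at which a combined region overlaps both replicates, in order along each sequence. Bars are regions of each list within 6 kb of the centre of the combined region (horizontal axis in kb). At sites 2 and 3 of 3RHet the longer region is in replicate 2 and then in replicate 1.

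The remaining 5 regions of replicate 2 on 2LHet met a combined region but none of replicate 1. They ran from 155467 to 157197 with a score of 1.06, from 205428 to 206921 with 0.61, from 256719 to 258366 with 0.76, from 313079 to 314567 with 0.72 and from 316128 to 318162 with 1.16. The first lay 1323 bp from the replicate 1 region that ends at 154143, and the last pair lay more than 61 kb from any region of replicate 1. Of the 79 replicate 2 regions on both sequences, 75 (94.9%) overlapped a combined region, against 97.9% over all sequences. The other 4 lay on 3RHet, between 37 and 3285 bp from the nearest one, and 1 of them, from 745649 to 746963, scored 1.21.

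Of the 8 regions of replicate 1 on 3RHet without a partner, 6 lay within 10 kb of a region of replicate 2. Their distance to the nearest such region had a median of 3833 bp and ranged from 471 to 16917 bp. The median gap of replicate 2 there was 17176 bp, and any position in a gap of that length lies within 10 kb of a region. Whether the 8 lay nearer than other positions was not tested. The nearest was the region from 1891349 to 1892751, at 471 bp. Seen from replicate 2, 9 of its 65 regions without a partner lay within 10 kb of a replicate 1 region. When replicate regions up to 1000 bp away also counted as overlapping a combined region, an alternative chosen after seeing the data, the number of shared sites on 3RHet was 8 and on 2LHet 4. When at least 50% of the combined and of the replicate region had to overlap, it was 2 on each.

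Scores of these regions ranked high within their lists. The score is the authors' own value, is used here only within a list, and has no scale given in the sources used here. Of the combined regions, 159 of the 248 on 3RHet (64.1%, 95% Wilson interval 58.0 to 69.8%) and 21 of the 31 on 2LHet (67.7%, 50.1 to 81.4%) were among the highest-scoring 10.0% of all regions, with scores of at least 0.485. This share was 44.6% on 3LHet and 51.7% on 2RHet, but 2.44% on 3R and 4.67% on 2L. The median score was 0.51 on 3RHet and 0.54 on 2LHet, against 0.39 over the table.

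The replicates had the same pattern on 3RHet. Of the replicate 1 regions 6 of 13, and of the replicate 2 regions 39 of 70 (55.7%), were among the highest-scoring 10.0% of their list. On 2LHet the numbers were 0 of 3 and 5 of 9. The median score on 3RHet was 0.60 in replicate 1 and 0.74 in replicate 2, against 0.54 and 0.58 over each list. On 3R the shares in the highest-scoring 10.0% were 5.40% and 2.80%. They were 45.5% and 40.8% on 3LHet, and 50% and 52.6% on 2RHet. High rank held in each class of length: of the combined regions of 3RHet, 75.6% of those under 1301 bp, 59.3% of those from 1301 to under 2000 bp and 55.1% of those of at least 2000 bp were in the highest-scoring 10.0%, compared with 1.97%, 0.384% and 4.68% on 3R. In the same classes the shares were 61.0%, 28.1% and 43.0% on 3LHet, and 68.6%, 45.0% and 41.7% on 2RHet. High rank was thus not particular to 3RHet.

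The highest scores belonged to short regions, and to none that both replicates held. Regions under 1301 bp were shorter than any replicate region. At any score, none of the 86 such regions on 3RHet and none of the 11 on 2LHet overlapped both replicates. The lack of shared sites among the highest scores thus cannot be told apart from their length. The 5 highest-scoring combined regions of 3RHet measured from 1001 to 1137 bp and overlapped no replicate region. Those from 1151546 to 1152676 and from 1175258 to 1176262 had the same score, 3.25. Those from 649574 to 650576 and from 1434808 to 1435808 also had equal scores, 3.10, and the next, from 1212362 to 1213498, scored 1.61. Over the sequence, 33 of the 248 regions had a score identical to that of another region there (rounded to 9 decimals). On 2LHet 0 of the 31 regions did. Identical scores were not counted on the other sequences, so they cannot be called a trait of 3RHet. On 2LHet the 3 highest, from 298246 to 299254, from 300718 to 301824 and from 339186 to 340194, scored 1.15, 1.09 and 1.07 and measured 1009, 1107 and 1009 bp.

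Combined regions with a score of at least 1 numbered 18 on 3RHet and 5 on 2LHet. On 3RHet a score of 1.01 stood at percentile 98.8 of the whole combined table. Of the 18 and 5, 17 and 5 overlapped neither replicate, while 65.7% of combined regions of any score did over the table. No count at this score is given for the table or the other sequences, so 17 and 5 have no like share beside them. The 18 and 5 regions had median lengths of 1136 and 1107 bp, below the 1301 bp of the shortest replicate region. Their lengths ran from 1001 to 1787 bp and from 1009 to 2003 bp, so not all were short. The exception on 3RHet, with a score of 1.23, lay from 1499684 to 1501470 and overlapped a replicate 1 region. Across regions, Spearman's rho between length and score was -0.33 on 3RHet (n = 248) and -0.35 on 2LHet (n = 31), -0.22 on 3LHet (n = 323) and -0.22 on 2RHet (n = 315), but 0.27 on 3R (n = 4545) and 0.16 on 2L (n = 3573). These are descriptions across regions of the same libraries, which share read depth.

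**Figure D5:**
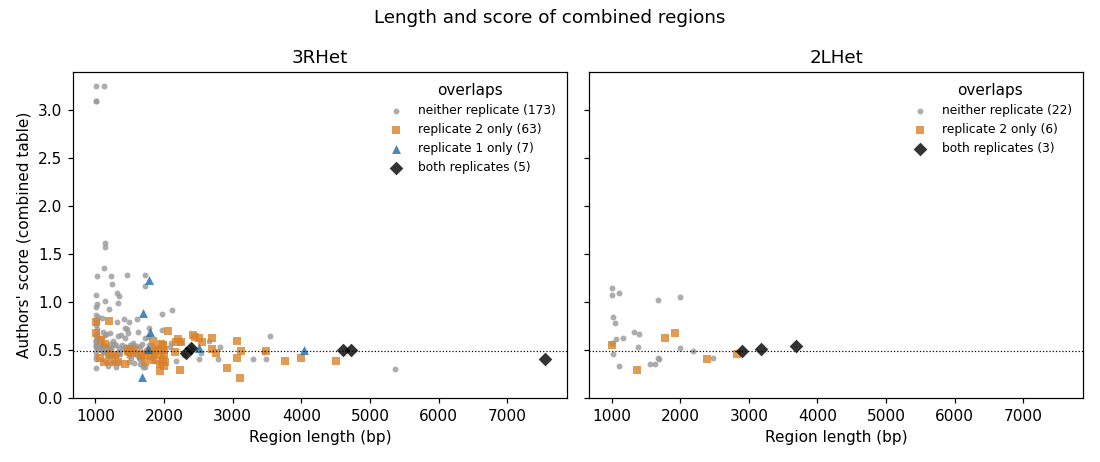
Length in bp (horizontal) and the authors' score (vertical) of each combined region of 3RHet and 2LHet, marked by the replicates it overlaps, with the number of regions in the key. The dotted line is the lowest score among the highest-scoring 10% of the table, 0.485. The 4 scores of at least 2 belong to regions near 1000 bp that overlap neither replicate, and the regions that overlap both lie close to the line.

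On 3RHet the sites that the replicates shared did not have the highest scores in either replicate. In replicate 1 the 5 shared regions of 3RHet scored from 0.46 to 0.69, with a median of 0.51, and the 8 without a partner from 0.37 to 2.09, with a median of 0.76. The 4 highest had none: the region from 1499641 to 1501401 scored 2.09, that from 1407091 to 1408775 scored 1.17, that from 919883 to 921378 scored 0.94 and that from 417034 to 418396 scored 0.85. The other regions without a partner lay at 1647207 to 1648509 with 0.55, at 1891349 to 1892751 with 0.37, at 1929797 to 1931656 with 0.51 and at 2303906 to 2305288 with 0.67. The 2 groups overlapped in score.

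In replicate 2 the 5 shared regions of 3RHet scored from 0.41 to 0.74, with a median of 0.66, and the other 65 from 0.35 to 1.33, with a median of 0.76. On 3RHet, 1 of 6 regions in the highest-scoring 10.0% of replicate 1 had a partner, and 1 of 39 in replicate 2. At any score 5 of 13 and 5 of 70 did, so few partners could be counted in replicate 2. Among the highest-scoring regions of 3R, 26 of 63 and 18 of 37 had a partner, against 36.9% and 31.7% at any score. In replicate 2 on 2LHet, 1 of 5 had one, against 4 of 9 at any score. Shared regions there had the lower median score (0.59 against 0.76), and all 3 regions of replicate 1 were shared. The 3R medians had the other order: 0.55 for shared and 0.52 for other regions of replicate 1, and 0.58 and 0.56 in replicate 2. On 2RHet the shared regions had the lower median in both replicates (0.60 against 0.64, and 0.71 against 0.72). On 3LHet they did in replicate 1 (0.61 against 0.65) and not in replicate 2 (0.675 against 0.666). The difference between sequences was not tested. Shared regions were also longer, with medians of 1900 and 1885 bp on 3RHet against 1450 and 1556 bp for the others.

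Length went with overlap among the combined regions. On 3RHet none of the 86 regions under 1301 bp and none of the 113 from 1301 to under 2000 bp overlapped both replicates, while 5 of the 49 of at least 2000 bp did. On 2LHet these counts were 0 of 11, 0 of 12 and 3 of 8. The shorter classes were also near 0 on 3LHet, 2RHet, 3R and 2L, at no more than 0.959%. Of regions of at least 2000 bp, 10.2% overlapped both replicates on 3RHet and 37.5% on 2LHet. The same share was 18.6% on 3LHet, 7.14% on 2RHet, 24.7% on 3R and 19.2% on 2L. Replicate 2 was overlapped by 11.6%, 25.7% and 59.2% of the 3 classes on 3RHet, and by 3.15%, 16.3% and 51.4% on 3R. Longer regions also meet others more often by their length alone. Combined regions under 1301 bp, shorter than any replicate region, made up 34.7% of those on 3RHet and 35.5% on 2LHet, against 31.7% of the table.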

How the data were processed

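Each list holds regions of significant enrichment by position, on FlyBase Release 5 per the file headers. The score of each region was made and deposited by the authors and has no stated scale. The submitters' processing notes name Bowtie 0.12.7, for no stated step. Neither the caller and threshold, the use of input, the depth nor how replicates were combined is given in the sources used here. Every combined start and end was an even number, against 50.8% and 49.9% of starts in the replicates. The members, comparisons and lists were chosen with earlier results of these data known. Covered bases, gaps, overlaps (at least 1 bp) and groups were computed with pandas 2.3.3, numpy 2.4.6 and scipy 1.17.1 in Python 3.11.15, drawn with matplotlib 3.10.9, and checked on simulated data. No test was made, since an exact test on 2 replicates could not reach a threshold. Shares of regions carry 95% Wilson intervals, which cover counting only. Regions named are all combined regions overlapping both replicates, the 5 longest and highest-scoring on 3RHet and 3 of each on 2LHet, and all replicate regions of 2LHet and of replicate 1; 1 region of replicate 2 on 3RHet and single groups and gaps were named after seeing their values. The only gene annotation used was of Release 6, so positions were not matched to genes and no sequence is shown.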

Additional observations from a re-analysis of the deposited data

How the results depend on the processing

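With regions of at least 2000 bp alone, the mean covered share fell from 2.83 to 0.744% on 3RHet and from 2.93 to 0.725% on 2LHet. It fell in each replicate: from 0.878 to 0.111% and from 4.78 to 1.38% on 3RHet, and from 1.28 to 0% and from 4.58 to 1.45% on 2LHet. The fall of each mean was smaller than the SD between replicates, but that SD does not measure a change within a replicate. Leaving out each replicate gave 0.878 to 4.78% on 3RHet and 1.28 to 4.58% on 2LHet. Combined regions of 3RHet overlapping both replicates numbered 5, and 2 with overlap of at least 50% of both regions, 1 with the upper scores alone (those not below the list's median), 0 with lengths of at least 2000 bp and 8 with replicate regions up to 1000 bp away counted, chosen after seeing the data. On 2LHet 3 became 1 and 0 under the same score and length limits. The 0 follows from the construction: on 2LHet no replicate 1 region was left, and on 3RHet the partner of the 1 that was left measured 1393 bp. Groups on 3RHet numbered 31, and 20 with a joining gap of 20 kb and 4 with regions of at least 2000 bp; on 2LHet 6 became 1 with regions of at least 2000 bp. The share of regions in the highest-scoring 10% was 59.2% on 3RHet and 62.5% on 2LHet among regions of at least 2000 bp ranked again, also chosen after seeing the data. No paired analysis was possible because 1 sample group alone had region lists analysed here; coverage relative to the arm is given within each replicate. Depth is unknown, so region numbers of different lists are set side by side as values.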
